A study of Homo sapiens with 5 samples.

Results

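The ZNF genes described here are 250 human genes whose symbol is ZNF followed by digits and at most 1 letter, and whose level reached 10 CPM (read counts scaled to library size, with the authors' TMM factors) in at least 1 of the 2 libraries grown at 20% O2. They were taken from 529 ZNF rows among the 26475 rows of the deposited gene table. Of the other 279 ZNF rows, 208 reached 1 CPM in at least 1 library, and 30 of the 529 were at 0 in all 5 libraries. The libraries came from MDA-MB-231 cells, an established human breast cancer cell line, with 1 library per condition. The conditions were 1% O2 for 1 day and 20% O2 for 1 day, reoxygenated cells (10 days at 1% O2 and then 10 days at 20% O2), 1% O2 for 10 days, and 20% O2 for 10 days. Reoxygenated cells had thus also spent longer in culture than the cells of day 10 they are compared with, so the return of oxygen and the added time cannot be told apart. No gene was altered and no agent other than oxygen was given, and the labels do not say whether the libraries came from separate cultures.

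ZNF proteins carry zinc fingers, mostly of the C2H2 kind, in which a pair of cysteines and a pair of histidines hold a zinc ion and the fingers in a row read DNA. The largest group among them also carries a KRAB domain near the start of the protein, which recruits the corepressor TRIM28 and, through it, enzymes that lay down repressive chromatin marks, in many cases over transposable elements. Many KRAB genes lie in clusters on chromosome 19, and other ZNF proteins work in quite different processes, such as ribosome quality control, RNA processing or the mitotic spindle.

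The rule used the levels of both 20% O2 libraries, so a gene at the threshold was chosen partly for a high value in the libraries that serve as the baseline of most comparisons. The members were selected on these 2 levels, which are therefore a description. ZNF337, ZNF484 and ZNF354C lay just inside the threshold, each at 10.1 deposited CPM in the higher of the 2 libraries, and ZNF254 (9.995), ZNF608 (9.957) and ZNF558 (9.860) lay just outside it. To carry the same selection, the comparison group throughout is the 9477 genes outside the family that reached the same 10 CPM in the same libraries, called the other genes below.

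Promoters of 6 members are shown because these genes turn up repeatedly in what follows. ZNF841 and ZNF83 were among the highest at 1% O2 on day 10, ZNF470 was about 2-fold higher at 1% O2 on both days, ZNF160 was highest on day 1, and ZNF326 and ZNF714 were among the lowest on day 10. Each stretch runs 5′ to 3′ from 250 bases before the gene's RefSeq start to 50 bases after it, on build GRCh38.p14. Capitals mark ACGTG or GCGTG on either strand (CACGT and CACGC when read from the other strand), the core letters to which hypoxia-inducible factors bind. The positions are chr19:52095716-52096015 on the minus strand for ZNF841, chr19:52690447-52690746 on the minus strand for ZNF83, chr19:56567218-56567517 on the plus strand for ZNF470, chr19:53103373-53103672 on the minus strand for ZNF160, chr1:89994860-89995159 on the plus strand for ZNF326, and chr19:21081953-21082252 on the plus strand for ZNF714.
ZNF841: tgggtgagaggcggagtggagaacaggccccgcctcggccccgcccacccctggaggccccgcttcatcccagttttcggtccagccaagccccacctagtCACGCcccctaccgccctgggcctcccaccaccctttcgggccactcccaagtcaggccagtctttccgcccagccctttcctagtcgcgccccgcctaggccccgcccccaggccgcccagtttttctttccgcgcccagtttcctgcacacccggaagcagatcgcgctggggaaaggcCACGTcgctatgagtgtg
ZNF83: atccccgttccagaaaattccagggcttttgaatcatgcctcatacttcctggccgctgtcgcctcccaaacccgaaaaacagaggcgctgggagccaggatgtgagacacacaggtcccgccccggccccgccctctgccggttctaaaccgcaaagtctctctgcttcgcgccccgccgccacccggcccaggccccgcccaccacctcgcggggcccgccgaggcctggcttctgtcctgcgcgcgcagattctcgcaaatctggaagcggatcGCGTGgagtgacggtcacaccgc
ZNF470: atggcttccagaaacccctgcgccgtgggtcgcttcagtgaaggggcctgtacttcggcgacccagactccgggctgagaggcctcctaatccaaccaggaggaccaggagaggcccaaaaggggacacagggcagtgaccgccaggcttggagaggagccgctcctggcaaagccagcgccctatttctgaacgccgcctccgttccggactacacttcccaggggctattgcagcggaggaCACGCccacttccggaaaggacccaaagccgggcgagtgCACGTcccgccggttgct
ZNF160: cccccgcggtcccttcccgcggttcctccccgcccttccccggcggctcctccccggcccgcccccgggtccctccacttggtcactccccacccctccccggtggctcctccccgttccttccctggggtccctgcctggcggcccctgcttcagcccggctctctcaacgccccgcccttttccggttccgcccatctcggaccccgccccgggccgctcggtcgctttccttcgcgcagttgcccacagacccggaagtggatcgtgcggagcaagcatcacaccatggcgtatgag
ZNF326: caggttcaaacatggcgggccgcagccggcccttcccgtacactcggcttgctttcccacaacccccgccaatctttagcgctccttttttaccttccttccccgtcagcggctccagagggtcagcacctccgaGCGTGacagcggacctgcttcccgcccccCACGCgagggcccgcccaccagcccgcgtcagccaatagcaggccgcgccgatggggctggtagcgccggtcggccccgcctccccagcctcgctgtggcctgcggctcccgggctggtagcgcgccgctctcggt
ZNF714: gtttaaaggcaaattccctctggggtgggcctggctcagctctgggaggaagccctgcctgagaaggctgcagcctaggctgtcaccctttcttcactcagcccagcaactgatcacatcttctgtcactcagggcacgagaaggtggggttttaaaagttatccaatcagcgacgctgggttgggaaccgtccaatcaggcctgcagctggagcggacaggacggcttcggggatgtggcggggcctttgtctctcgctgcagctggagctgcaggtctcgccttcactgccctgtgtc

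ZNF841, ZNF470 and ZNF326 hold 2 matches each and ZNF83 holds 1, while these letters are in neither window of ZNF160 and ZNF714. RefSeq promoters were matched for 212 of the 250 members. At least 1 of the motifs was in 68.4% of the members' promoters, against 65.5% of 7813 promoters of the other genes and 48.4% of all 35116 promoters of that length. ACGTG was in 25.9% of member promoters and in 28.2% of those of the other genes, and GCGTG in 57.5% and 53.0% in the same order. Median log2 differences at day 10 were 0.07 for members with either motif and 0.03 for members without. A match describes letters and is not a binding site.

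Levels and library checks frame these values. Library totals ran from 7719807 to 12544941 counts, so that 1 read was worth between 0.0816 and 0.126 CPM. All levels given from here on are CPM with TMM factors recomputed on the 13940 genes that reached 1 CPM in at least 1 library. By deposited CPM, VIM ran between 977 and 2229 and CD44 between 558 and 1202. CDH1 was at most 1.08, and ESR1 and PGR were under 1 CPM in all 5 libraries. In these genes the cells had the character known for this line. ERBB2 (42.56 to 51.63 CPM) and EPCAM (14.84 to 29.05 CPM) were also checked and were not as low as CDH1, ESR1 and PGR. Of 8 markers of fibroblasts, endothelial, blood and liver cells, COL1A1 was highest, at 4.49 to 14.5 CPM, PTPRC and COL3A1 reached at most 2.68 and 2.59 CPM in the library of day 10 at 1% O2, and HBB was at 0 throughout. The hypoxia targets CA9, NDRG1, ANKRD37, EGLN3 and VEGFA were higher at 1% O2 than at 20% O2 on both days, and 5 of 6 checked targets, all except ADM, passed edgeR's oxygen term.

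Most members were expressed at a low to moderate level. Their median level was 21.4 CPM at 1% O2 and 19.5 CPM at 20% O2 on day 1. The medians were 19.9 CPM in reoxygenated cells, and 21.6 CPM at 1% O2 and 18.6 CPM at 20% O2 on day 10. Summed over all 250 members, the family made up 8532 CPM at 1% O2 and 7911 CPM at 20% O2 on day 1, then 8238 CPM in reoxygenated cells, and 8387 CPM at 1% O2 and 7763 CPM at 20% O2 on day 10. These summed levels were thus lowest in the 2 libraries that had only seen 20% O2. A bulk library does not tell fewer cells expressing a gene from less RNA per cell. Of the 250 members, 81 had their highest level and another 81 their lowest level in the library of 10 days at 1% O2. At 20% O2 on day 10, 19 peaked, and 14 were lowest at 1% O2 on day 1. The other genes were not counted in this way, so these counts are not read as a trait of the family. Over all 13940 genes, 14.4% were at least 2-fold higher and 7.04% lower at 1% than at 20% O2 on day 10. On day 1 these shares were 2.12% and 0.839%.

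Of the 5 most abundant members, 4 differed little between libraries. ZNF106 had 264 CPM at 1% O2 and 249 CPM at 20% O2 on day 1, and 290 CPM in reoxygenated cells, 303 CPM at 1% O2 and 282 CPM at 20% O2 on day 10. ZNF664 had 273 CPM at 1% O2 and 254 CPM at 20% O2 on day 1, and 263 CPM in reoxygenated cells, 245 CPM at 1% O2 and 263 CPM at 20% O2 on day 10. ZNF146, a protein made almost wholly of fingers, had 211 CPM at 1% O2 and 203 CPM at 20% O2 on day 1 and 205 CPM in reoxygenated cells, 179 CPM at 1% O2 and 204 CPM at 20% O2 on day 10. ZNF24, a SCAN-domain repressor, ran between 149 CPM in both 20% O2 libraries and 181 CPM in reoxygenated cells. The fifth was ZNF207 (BuGZ), a spindle protein that stabilises the checkpoint protein BUB3, with 202 CPM at 1% O2 and 239 CPM at 20% O2 on day 1, and with 197 CPM in reoxygenated cells, 106 CPM at 1% O2 and 177 CPM at 20% O2 on day 10. Its log2 difference at day 10 was -0.74, and the exact 95% interval of the count ratio, which covers counting error only, ran from -0.85 to -0.64.

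After 1 day at 1% O2 the family as a whole lay slightly higher than at 20% O2. The median log2 difference was 0.09 over the 250 members, with quartiles of -0.03 and 0.28, and 171 members (68.4%) were above 0. Over the other genes the median was -0.01, with quartiles of -0.14 and 0.13, and 47.2% were above 0. Few members moved far, with 3 at least 2-fold (log2 1) higher and 0 at least 2-fold lower. The 3 are 1.2% of the members, beside 0.39% of the other genes and 2.12% of all 13940 genes, and 0.0844% of the other genes and 0.839% of all genes were 2-fold lower. With 1 library per condition no such difference has a test, and each compares those 2 libraries. Counting intervals lay wholly above 0 for 69 members and wholly below 0 for 16, which is 27.6% and 6.4%, whereas the other genes divided almost evenly, at 19% and 21.3%. The median interval was 0.56 log2 units wide for members and 0.35 for the other genes, because the members carry fewer reads.

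**Figure D1:**
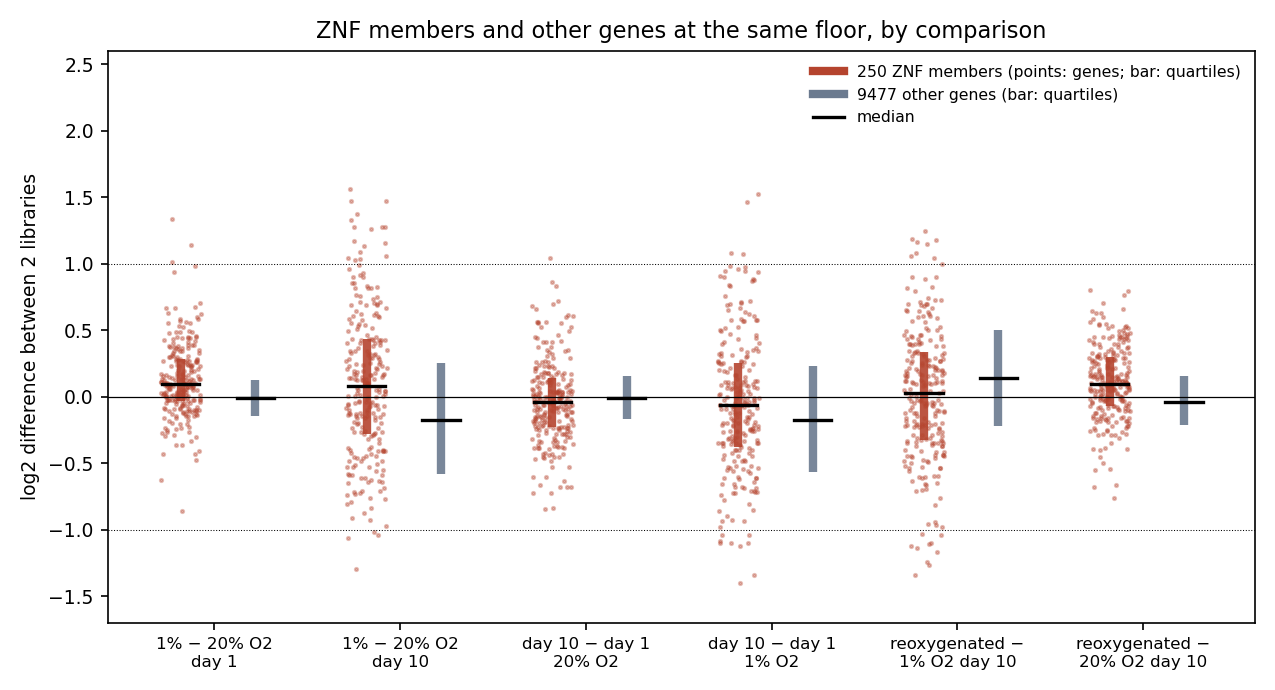
Log2 difference between pairs of libraries (vertical axis) for 6 comparisons (horizontal axis), with each of the 250 ZNF members as a point, bars for the quartiles and a black line for the median, beside quartile bars of the 9477 other genes. The members' medians lie above those of the other genes in both comparisons of 1% with 20% O2 (0.09 against -0.01 on day 1, 0.08 against -0.17 on day 10) and in reoxygenated minus 20% O2 cells (0.10 against -0.04), and dotted lines mark 2-fold.

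After 10 days at 1% O2 the members spread widely in both directions. Their median log2 difference against 20% O2 was 0.08, with quartiles of -0.28 and 0.43, and 138 members (55.2%) were above 0. The other genes had a median of -0.17, with quartiles of -0.58 and 0.25, and 39.4% were above 0. The sign of the member median against 0 is not firm, since it was 0.21 with libraries scaled by totals and 0.00077 over the 130 members of 20 CPM or more. At least 2-fold higher were 17 members (6.8%), against 4.96% of the other genes and 14.4% of all 13940 genes, where 1468 of the 2011 genes so placed lay under the 10 CPM floor. At least 2-fold lower were 4 members (1.6%), against 8.54% of the other genes and 7.04% of all genes. Both quartiles of the members thus lay above those of the other genes. The shares at least 2-fold lower were further apart than the shares at least 2-fold higher. In each band of level under 40 CPM given below, members had a smaller share at least 2-fold higher than the other genes.

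The gap between members and other genes varied with expression level on day 10 and less so on day 1. Split by the higher of the 2 levels at 20% O2, the 120 members of 10 to 20 CPM had a day 1 median of 0.10, the 74 members of 20 to 40 CPM 0.09, and the 56 members of 40 CPM or more 0.08. The other genes of those 3 bands, 1568, 2106 and 5803 in number, had medians of 0.00, -0.02 and -0.02. At day 10 the members' medians were 0.13, 0.03 and -0.04 from the lowest to the highest band, and those of the other genes 0.11, -0.07 and -0.27. Among genes of 10 to 20 CPM, then, members and other genes differed by little at day 10, and the gap widened with level. In the same band 60.8% of members and 57.8% of the other genes were above 0 at day 10. In the band of 40 CPM or more the shares were 46.4% and 32.2%. At least 2-fold higher at day 10 were 10%, 4.05% and 3.57% of members from the lowest to the highest band. The other genes' shares were 11.99%, 5.89% and 2.72%. At least 2-fold lower were 0.83%, 2.70% and 1.79% of members, against 6.25%, 6.55% and 9.87% of the other genes.

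**Figure D2:**
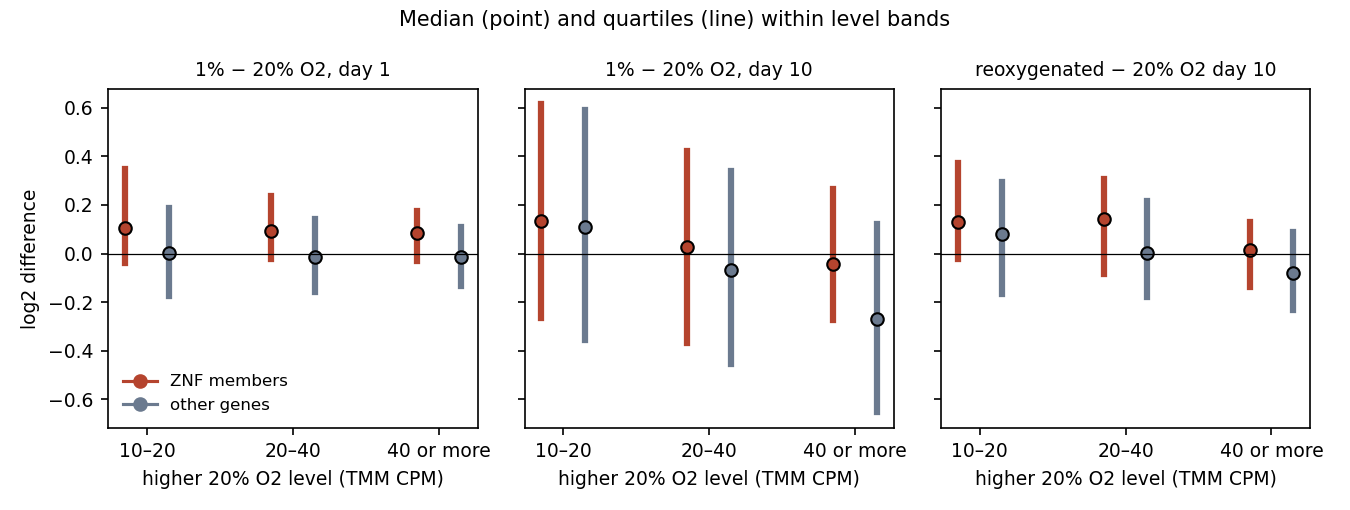
Median (point) and quartiles (line) of the log2 difference in 3 bands of expression (horizontal axis, higher of the 2 levels at 20% O2) for ZNF members beside the other genes. On day 1 the members' median stays between 0.08 and 0.10 in each band, and on day 10 it comes closest to that of the other genes in the lowest band (0.13 against 0.11).

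The members highest on day 1 were neighbours on chromosome 19. ZNF160, a KRAB gene with 20 fingers, had 31.1 CPM at 1% O2 and 12.2 CPM at 20% O2 on day 1, and 24.8 CPM in reoxygenated cells, 32.8 CPM at 1% O2 and 20.0 CPM at 20% O2 on day 10. It was lowest at 20% O2 on day 1 and highest at 1% O2 on day 10, and its log2 difference on day 1 was 1.33 (counting interval 1.05 to 1.65). ZNF28 had 13.2 CPM at 1% O2 and 5.88 CPM at 20% O2 on day 1, and 13.5 CPM in reoxygenated cells, 13.2 CPM at 1% O2 and 12.3 CPM at 20% O2 on day 10, so that the 20% O2 library of day 1 alone was low, with a log2 difference of 1.14 (0.72 to 1.62) on day 1 and 0.10 on day 10. ZNF761 had 14.9 CPM at 1% O2 and 7.32 CPM at 20% O2 on day 1 and 14.8 CPM in reoxygenated cells, 9.68 CPM at 1% O2 and 10.9 CPM at 20% O2 on day 10, a log2 difference of 1.01 on day 1 (0.63 to 1.44) and -0.16 on day 10. ZNF28 was also the single member that differed 2-fold when day 10 was compared with day 1 at 20% O2 (log2 1.04). At least 2-fold higher there were 0.4% of members, 0.675% of the other genes and 3.06% of all genes. For ZNF28 the difference rests on the 20% O2 library of day 1. ZNF28 and ZNF761 passed the floor only through the 20% O2 library of day 10. Their higher level there than at 20% O2 on day 1 is therefore partly a product of the selection.

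ZNF470 came next on day 1 and was about 2-fold higher at 1% O2 on both days. It had 30.3 CPM at 1% O2 and 15.2 CPM at 20% O2 on day 1, then 20.9 CPM in reoxygenated cells, 43.0 CPM at 1% O2 and 19 CPM at 20% O2 on day 10. Both 1% O2 libraries were above the other 3, with log2 differences of 0.98 (0.72 to 1.28) on day 1 and 1.17 (0.94 to 1.41) on day 10. ZNF470 is a KRAB gene with 17 fingers on chromosome 19.

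The lowest members on day 1 were small in number and in level. ZNF552 had 7.88 CPM at 1% O2 and 14.4 CPM at 20% O2, a log2 difference of -0.86 (-1.28 to -0.48). ZNF408 had 8.90 and 13.9 CPM (log2 -0.63) and the KRAB gene ZNF74 had 7.51 and 10.5 CPM (log2 -0.47). ZNF552 and ZNF74 passed the floor only through the 20% O2 library of day 1, the baseline here. Their place among the lowest is therefore partly a product of the selection. ZNF593, whose yeast relative takes part in building the large ribosomal subunit, had 10.0 CPM at 1% O2 and 13.6 CPM at 20% O2 on day 1, and 8.55 CPM in reoxygenated cells, 6.81 CPM at 1% O2 and 11.3 CPM at 20% O2 on day 10. Its log2 differences at 1% O2 were -0.43 on day 1 and -0.71 on day 10, and both counting intervals lay below 0.

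At day 10 the highest members mixed KRAB genes of chromosome 19 with ZNF genes of other kinds. ZNF704, a gene with 1 finger match on chromosome 8, had 24.2 CPM at 1% O2 and 17.6 CPM at 20% O2 on day 1, and 32.5 CPM in reoxygenated cells, 66.9 CPM at 1% O2 and 22.5 CPM at 20% O2 on day 10. Its level at 1% O2 on day 10 stood apart from all others, with a log2 difference of 1.56 (1.37 to 1.78). ZNF841, a KRAB gene with 20 fingers, had 29.6 CPM at 1% O2 and 20.0 CPM at 20% O2 on day 1 and 25.8 CPM in reoxygenated cells, 50.1 CPM at 1% O2 and 18 CPM at 20% O2 on day 10, a log2 difference of 1.47 (1.25 to 1.72). ZNF83, with 14 fingers, had 15.8 CPM at 1% O2 and 10.7 CPM at 20% O2 on day 1 and 18.4 CPM in reoxygenated cells, 29.2 CPM at 1% O2 and 10.4 CPM at 20% O2 on day 10, also a log2 difference of 1.47 (1.18 to 1.79). In all 3 genes the 1% O2 library was the higher on day 1 as well.

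ZNF8 and ZNF358 lay near or below 0 on day 1 and high on day 10. The KRAB gene ZNF8 had 10.9 CPM at 1% O2 and 11.8 CPM at 20% O2 on day 1, and 14.1 CPM in reoxygenated cells, 31.8 CPM at 1% O2 and 12.2 CPM at 20% O2 on day 10. The log2 differences at 1% O2 were -0.11, with a counting interval that spans 0, on day 1 and 1.37 (1.11 to 1.68) on day 10. ZNF358 had 11.6 CPM at 1% O2 and 13.1 CPM at 20% O2 on day 1 and 10.9 CPM in reoxygenated cells, 21.8 CPM at 1% O2 and 8.57 CPM at 20% O2 on day 10, with log2 differences of -0.17 and 1.33. ZNF395, a transcription factor known as a hypoxia-induced gene, had 107 CPM at 1% O2 and 84.1 CPM at 20% O2 on day 1, and 68.8 CPM in reoxygenated cells, 148 CPM at 1% O2 and 61.2 CPM at 20% O2 on day 10. Both 1% O2 libraries were above the rest, with log2 differences of 0.34 (0.22 to 0.47) and 1.27 (1.15 to 1.40). Of the 50-base words of its transcripts 60.8% also occur in FBXO16, and the 2 rows summed gave the same 1.27, because FBXO16 held at most 15 counts.

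The other members at least 2-fold higher at day 10 were ZNF264, ZNF514, ZNF320, ZNF224, ZNF114, ZNF385A, ZNF581, ZNF284, ZNF580 and ZNF585A, beside ZNF470. ZNF114, the most abundant of them, had 104 CPM at 1% O2 and 77.3 CPM at 20% O2 on day 1, and 66.9 CPM in reoxygenated cells, 162 CPM at 1% O2 and 73.5 CPM at 20% O2 on day 10. ZNF264 had 39.0 CPM at 1% O2 and 32.4 CPM at 20% O2 on day 1 and 32.3 CPM in reoxygenated cells, 76.8 CPM at 1% O2 and 31.7 CPM at 20% O2 on day 10. Both are KRAB genes, and in both the 1% O2 library of day 10 was at least 1.5 times any other. ZNF320 had 24.9 CPM at 1% O2 and 17.0 CPM at 20% O2 on day 1 and 16.0 CPM in reoxygenated cells, 40.8 CPM at 1% O2 and 17.0 CPM at 20% O2 on day 10, but it shares 62.3% of its words with the neighbouring ZNF468 and other rows, and the counts of ZNF320 and ZNF468 summed gave a log2 difference of 0.91 in place of 1.26. Of the 17 members, 13 lie on chromosome 19 and 10 carry the KRAB signature described below. Promoters were matched for 13 of the 17, and 10 of these held ACGTG or GCGTG, as did 3 of the 4 members that were 2-fold lower (ZNF326, ZNF689 and ZNF92) and 68.4% of all member promoters.

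The lowest member at day 10 was ZNF326, part of the DBIRD complex that couples RNA polymerase II to splicing. It had 55.6 CPM at 1% O2 and 44.2 CPM at 20% O2 on day 1, and 39.8 CPM in reoxygenated cells, 25.8 CPM at 1% O2 and 63.7 CPM at 20% O2 on day 10. The 1% O2 library was the higher on day 1 (log2 0.33, 0.15 to 0.51) and the lower on day 10 (log2 -1.30, -1.51 to -1.1). ZNF689 had 21.8 CPM at 1% O2 and 26.6 CPM at 20% O2 on day 1 and 15.6 CPM in reoxygenated cells, 10.2 CPM at 1% O2 and 21.5 CPM at 20% O2 on day 10, with log2 differences of -0.29 and -1.06. ZNF92 had 16.3 CPM at 1% O2 and 10.2 CPM at 20% O2 on day 1 and 17.0 CPM in reoxygenated cells, 7.38 CPM at 1% O2 and 15.2 CPM at 20% O2 on day 10, with log2 differences of 0.67 and -1.02.

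ZNF714, also among the 4 members at least 2-fold lower, and ZNF430 and ZNF100, just short of it, are close neighbours on chromosome 19. ZNF714 had 35.7 CPM at 1% O2 and 32.8 CPM at 20% O2 on day 1, and 30.8 CPM in reoxygenated cells, 13.4 CPM at 1% O2 and 27.8 CPM at 20% O2 on day 10 (log2 -1.04, -1.35 to -0.76). ZNF430 had 9.18 CPM at 1% O2 and 6.07 CPM at 20% O2 on day 1 and 12.5 CPM in reoxygenated cells, 5.47 CPM at 1% O2 and 10.9 CPM at 20% O2 on day 10 (log2 -0.98), and ZNF100 had 13.3 CPM at 1% O2 and 12.4 CPM at 20% O2 on day 1 and 13 CPM in reoxygenated cells, 6.14 CPM at 1% O2 and 11.8 CPM at 20% O2 on day 10 (log2 -0.93). In each of the 3 the 1% O2 library of day 10 was lowest or, for ZNF430, lowest together with the 20% O2 library of day 1. ZNF430 passed the floor only through the 20% O2 library of day 10.

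**Figure D3:**
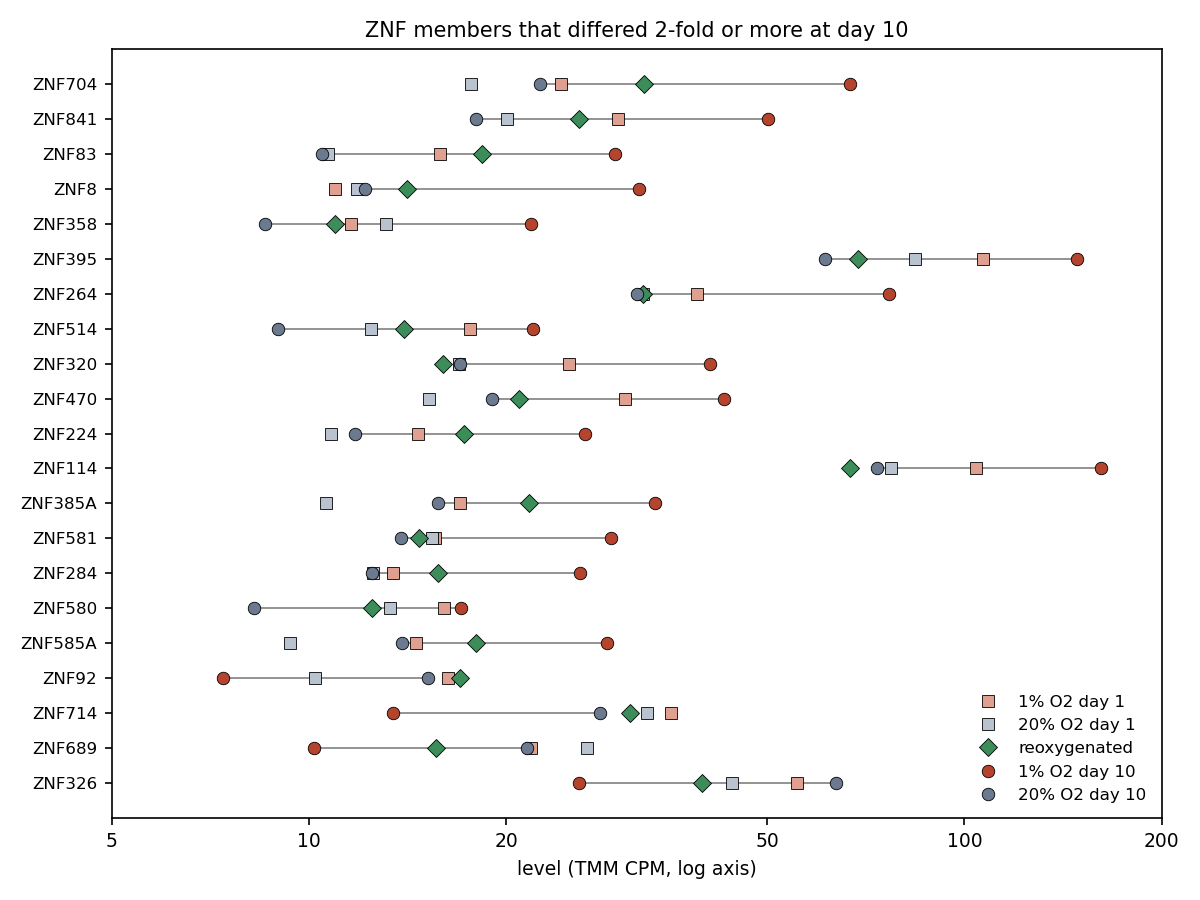
Levels in the 5 libraries (horizontal log axis, TMM CPM) of the 21 ZNF members that differed at least 2-fold between 1% and 20% O2 on day 10, ordered by that difference, with a grey line joining those 2 libraries. For each of the upper 17 genes the reoxygenated level (green diamond) lies below the level at 1% O2 on day 10, and for the lower 4 above it.

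The oxygen difference of a member on day 1 said little about its difference on day 10. Of the 250 members, 106 were above 0 on both days, 47 below 0 on both, 65 above 0 on day 1 and below 0 on day 10, and 32 the reverse. Pearson's r between the 2 differences was 0.26 and Spearman's rho 0.25 over the 250 members, and 0.42 and 0.41 over the other genes. These are correlations across genes, which are not independent replicates, and the 2 differences share no library.

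**Figure D4:**
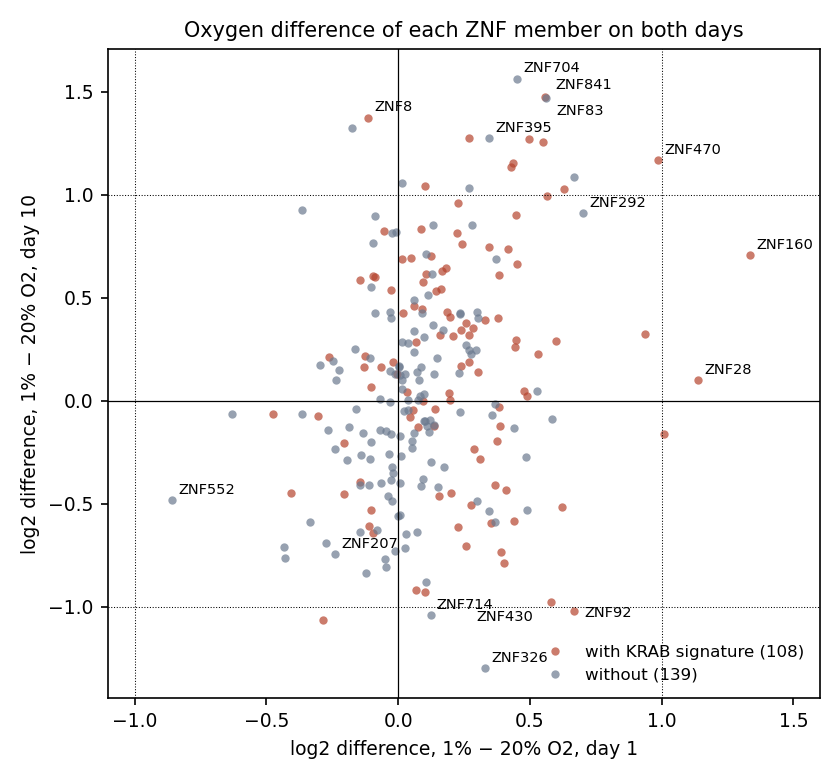
Log2 difference between 1% and 20% O2 on day 10 (vertical axis) against that on day 1 (horizontal axis) for the 247 members that could be translated, coloured by the KRAB signature, with dotted lines at 2-fold. ZNF470 is near 1 on both axes, ZNF160 and ZNF28 lie to the right, and ZNF326, ZNF92 and ZNF430 lie to the right of 0 and near or below -1 on day 10.

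The test set the 2 libraries at 1% O2 against the 2 at 20% O2 with day as a term, and edgeR's quasi-likelihood test was adjusted over all 13011 genes tested. In this oxygen term 0 of the 250 members passed an adjusted p of 0.05, while 0.899% of all genes rose and 0.0999% fell. At an unadjusted p under 0.05 there were 18 members (7.2%), all higher at 1% O2, where 7.36% of all genes were so and 4.88% were lower. DESeq2 also called 0 members, with 13 at an unadjusted p under 0.05. Without the day term edgeR called 0 of all 13011 genes, and 11 members had an unadjusted p under 0.05. The lowest adjusted p belonged to ZNF470 at 0.0722 (log2 1.10, SE 0.30, edgeR), and ZNF704, ZNF841 and ZNF160 followed, each with an adjusted p of 0.117 and a log2 difference of 1.04 (SE 0.31). limma-voom called ZNF470 and ZNF704. The median of this log2 difference was 0.09 over members, -0.08 over the other genes and 0.00 over all genes. The model leaves 1 residual degree of freedom, which holds the change of the oxygen difference between the days. On simulated counts at its dispersion of 0.0484, changed alike on both days, it recovered 35% of genes changed 2-fold and 100% changed 4-fold. At a simulated dispersion of 0.02 it recovered 82% of genes changed 2-fold. Most 2-fold changes would thus be missed at the dispersion of the fit. Without the 1% O2 library of day 1, and then with no day term, 40 members rose and 14 fell, among 2028 and 2197 of all genes, and without any 1 of the other 3 libraries 0 members were called.

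Members with and without a KRAB domain, which the selection did not use, had different medians. A KRAB A-box signature (Leu-Tyr, any 2 residues, Val-Met, any residue, Glu within the first 250 residues) was found in 108 of the 247 members with a coding transcript, and 139 lacked it. The signature is strict and can miss a degenerate box. On day 1 the KRAB members had a median log2 difference of 0.20, with 78.7% above 0, and the members without it 0.03, with 59.7% above 0. All 3 members at least 2-fold higher on day 1 carried it. At day 10 the medians were 0.22 with KRAB and -0.04 without, and in reoxygenated minus 20% O2 cells they were 0.14 and 0.05. The medians given here with and without KRAB pool members of all expression levels, and level also went with the members' day 10 difference.

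Transcript base composition ran along with this split. The median GC content of the transcripts was 42.8% in KRAB members and 47.8% in members without KRAB, and over the whole family it was 44.4% against 48.3% in the other genes. Across members GC content and the day 1 difference had a Spearman's rho of -0.42, and across the other genes -0.16. In the lower 2 of 5 GC bands the day 1 medians were 0.27 for 82 KRAB members, 0.09 for 58 members without KRAB and 0.03 for 3758 other genes. In the upper 3 bands they were 0.01 for 26 KRAB members, 0.00 for 81 members without KRAB and -0.04 for 5636 other genes, so on day 1 the KRAB members of higher GC content did not stand apart. At day 10 the medians were 0.21, -0.10 and -0.27 in the lower 2 bands and 0.25, 0.02 and -0.09 in the upper 3, and there KRAB members lay above the others in both. Transcript length also went with the day 1 difference. The other genes' day 1 medians in 5 bands of rising transcript length were -0.12, -0.07, -0.02, 0.03 and 0.10, and the members' medians were 0.04 (8 members), -0.03, 0.05, 0.16 and 0.13, so the gap was narrower within the second, the third and the longest band. Members' transcripts had a median length of 3954.5 bases, and those of the other genes 3237 bases. None of these medians has a test, and the part of base composition or length in them was not tested.

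Members with many fingers had higher medians than members with few in some comparisons. The 55 members with 15 or more C2H2 fingers had medians of 0.21 on day 1 and 0.22 in reoxygenated minus 20% O2 cells, with 81.8% and 83.6% above 0. The 45 members with up to 4 fingers had medians of 0.04 and -0.02 in the same comparisons. On day 10 the medians over members with up to 4, 5 to 9, 10 to 14 and 15 or more fingers were 0.05, 0.13, 0.00 and 0.14, and in reoxygenated minus 1% O2 cells the members with 15 or more fingers had -0.01 and those with up to 4 had 0.09. The family's median number of fingers was 10 and the highest 33, and 5 translated members had no match to the strict finger pattern.

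Chromosome 19 holds 96 of the 250 members (38.4%), against 5.27% of the other genes, and 66 of these 96 carry the KRAB signature. The median log2 difference on day 1 was 0.16 for the members on chromosome 19, 0.06 for the 154 members elsewhere and -0.07 for the 499 other genes of chromosome 19. At day 10 the 3 medians were 0.24, -0.01 and -0.09. Position and KRAB overlapped: the 66 KRAB members of chromosome 19 had a day 10 median of 0.32, the 29 members there without KRAB -0.10, and the 42 KRAB members of other chromosomes 0.04. On day 1 the same 3 groups had medians of 0.23, 0.06 and 0.18, so that KRAB members of other chromosomes then lay close to those of chromosome 19.

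Neighbouring members on chromosome 19 showed contrasting medians. Joining members less than 1 Mb apart gave 15 groups. In the group from position 51571283 to 53580269, 15 genes of which 14 carry KRAB and which include ZNF160, ZNF28, ZNF761, ZNF841 and ZNF83, the medians were 0.40 on day 1 and 0.39 on day 10, and 14 of 15 members were above 0 on day 1. In the group from 43607224 to 44500522, 10 genes including ZNF224 and ZNF284, the medians were 0.14 on day 1 and 0.64 on day 10, with 8 of 10 above 0 on day 10. The group from 19668153 to 21767579 went the other way at day 10, with 7 genes (ZNF101, ZNF93, ZNF486, ZNF430, ZNF714, ZNF431 and ZNF100), a median of 0.12 on day 1, when all 7 were above 0, and of -0.51 on day 10, when 2 of 7 were. The largest group, 33 genes from 55576774 to 58475436, had medians of 0.05 and 0.17. Genes of 1 group can share sequence and so reads, and the groups were defined after the data had been seen. ZNF28 and ZNF761 share 9.16% and 10.2% of their 50-base words with other rows, and the median member shares 0.19%. ZNF320 and ZNF468, in the same group as these 2 genes, share 62.3% and 42.3%.

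**Figure D5:**
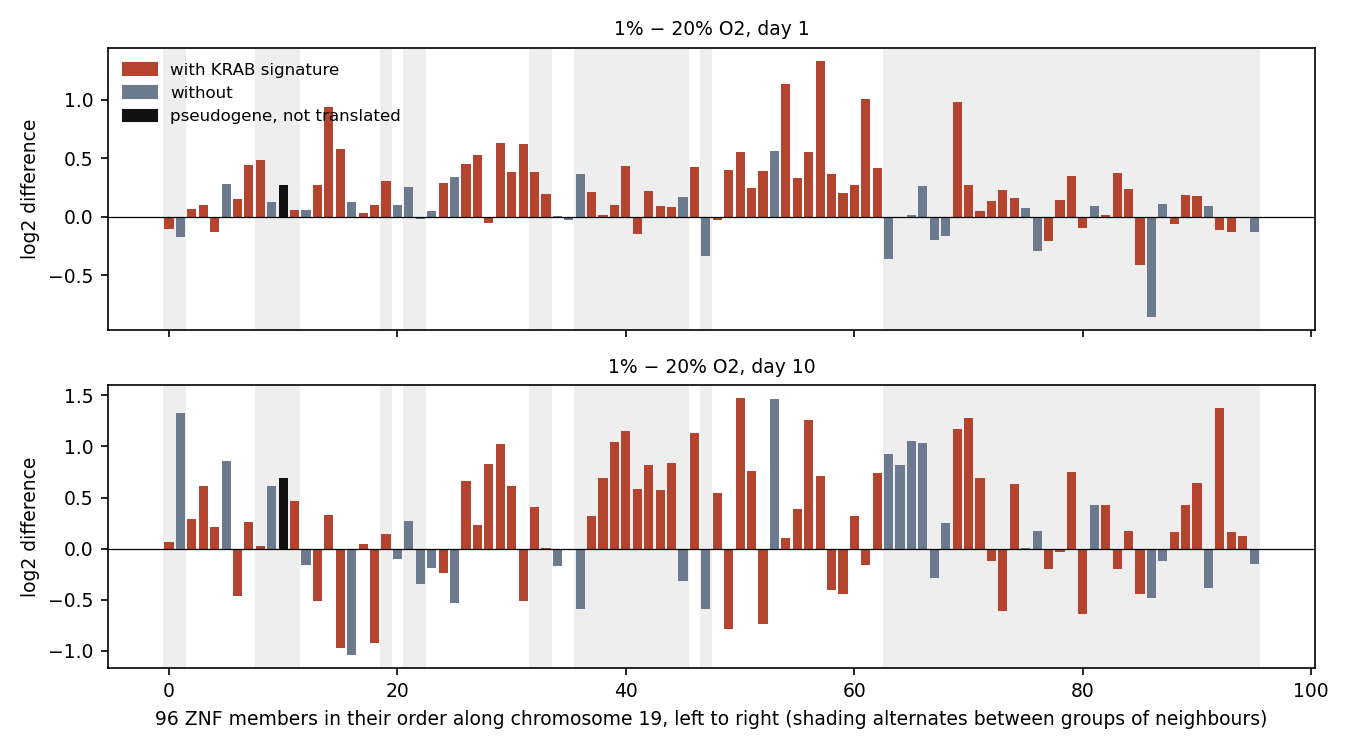
Log2 difference between 1% and 20% O2 on day 1 (upper panel) and day 10 (lower panel) of the 96 ZNF members on chromosome 19, each bar 1 gene, in their order along the chromosome, with colour for the KRAB signature and shading that alternates between groups of neighbours. Bars 13 to 19 from the left are the 7 genes whose median is 0.12 on day 1 and -0.51 on day 10.

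ZNF292, a large nuclear protein with 14 finger matches, had 87.5 CPM at 1% O2 and 53.8 CPM at 20% O2 on day 1, and 64.7 CPM in reoxygenated cells, 98.2 CPM at 1% O2 and 52.1 CPM at 20% O2 on day 10, with log2 differences of 0.70 and 0.91 at 1% O2. Both 1% O2 libraries were above the other 3, although the oxygen term gave an adjusted p of 0.159 (edgeR, log2 0.82, SE 0.26). ZNF217, a gene known for its amplification in breast cancer, had 129 CPM at 1% O2 and 105 CPM at 20% O2 on day 1 and 153 CPM in reoxygenated cells, 192 CPM at 1% O2 and 142 CPM at 20% O2 on day 10, with log2 differences of 0.30 and 0.43 at 1% O2. ZNF703, amplified in luminal breast tumours, had 16.4 CPM at 1% O2 and 16.8 CPM at 20% O2 on day 1 and 8.05 CPM in reoxygenated cells, 17.5 CPM at 1% O2 and 12.9 CPM at 20% O2 on day 10, and was thus lowest in reoxygenated cells.

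ZNF91 and ZNF93, KRAB proteins known to bind and silence SVA and LINE-1 elements, were expressed near the threshold. ZNF91 had 14.6 CPM at 1% O2 and 11.8 CPM at 20% O2 on day 1, and 20.0 CPM in reoxygenated cells, 14.5 CPM at 1% O2 and 13.1 CPM at 20% O2 on day 10. ZNF93 had 7.97 CPM at 1% O2 and 6.55 CPM at 20% O2 on day 1 and 11.1 CPM in reoxygenated cells, 7.29 CPM at 1% O2 and 10.4 CPM at 20% O2 on day 10, with a log2 difference of -0.51 (-0.95 to -0.10) at 1% O2 on day 10. Only the counting interval of the day 10 difference of ZNF93 excluded 0, of the 4 differences between 1% and 20% O2 of these 2 genes. ZNF93 passed the floor only through the 20% O2 library of day 10, which is the baseline of that difference. Its lower level at 1% O2 on day 10 is therefore partly a product of the selection.

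Other members with known tasks differed less than 2-fold at 1% O2 on both days. ZNF143, an activator that binds promoters and chromatin loop anchors, had log2 differences of -0.01 on day 1 and 0.13 on day 10. For ZNF148 (ZBP-89) they were 0.09 and 0.17, for ZNF384 0.13 and 0.37, for ZNF330 0.04 and -0.04, and for ZNF410, which activates the CHD4 gene, -0.11 and -0.28. ZNF131, a BTB-domain factor, differed by -0.05 and -0.80, ZNF367 by -0.12 and -0.84, ZNF706 by 0.07 and -0.64, and ZNF451, a SUMO ligase, by -0.07 and -0.40. ZNF598, the ubiquitin ligase of collided ribosomes, differed by 0.02 and 0.29, ZNF622, a factor of late 60S maturation, by -0.03 and -0.16, and ZNF638, an RNA- and DNA-binding protein, by 0.01 and -0.27. ZNF121 was higher on both days, with 0.28 and 0.86. Of these genes, ZNF131, ZNF367, ZNF706 and ZNF121 differed by more than 0.5 log2 units on day 10, and their counting intervals excluded 0.

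Cells returned to 20% O2 for 10 days held members near the levels of cells that had never left it. In reoxygenated minus 20% O2 cells of day 10, 0 of 250 members differed 2-fold in either direction, against 0.707% of the other genes and 4.81% of all genes, and the lowest and highest log2 differences were -0.76 and 0.80. The members' median was 0.10, with 65.2% above 0, against -0.04 and 43.6% for the other genes. The member median was 0.17 when libraries were scaled by totals and 0.03 with TMM factors from unfiltered genes or with the deposited values. In bands of level the medians were 0.13, 0.14 and 0.01 for members and 0.08, 0.00 and -0.08 for the other genes, from 10 to 20 CPM upward. The highest were ZNF83 at 0.80 (0.46 to 1.17), ZNF32 at 0.79, ZNF251 at 0.76 and ZNF37A at 0.70. The lowest were ZNF250 at -0.76 (-1.21 to -0.36), ZNF326 at -0.68, ZNF703 at -0.67 and ZNF670 at -0.55. ZNF37A had 32.0 CPM in reoxygenated cells, 20.2 CPM at 1% O2 and 19.6 CPM at 20% O2 on day 10, so that its level was highest after the return. ZNF250 had 8.30 CPM in reoxygenated cells, 18.5 CPM at 1% O2 and 14.2 CPM at 20% O2 on day 10. Among these levels the lowest was after the return. ZNF250 passed the floor only through the 20% O2 library of day 10, the baseline here. Its place as the lowest member is therefore partly a product of the selection.

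Set against cells of 10 days at 1% O2, 8 members were at least 2-fold higher in reoxygenated cells (3.2%, against 5.62% of the other genes and 5.6% of all genes) and 10 at least 2-fold lower (4.0%, against 3.71% of the other genes and 11.2% of all genes). By band of level, 5%, 2.70% and 3.57% of members were at least 2-fold lower, from 10 to 20 CPM upward. The other genes' shares were 9.38%, 4.46% and 1.91% in the same order. The lowest members were ZNF320 (log2 -1.34), ZNF114 (-1.27), ZNF264 (-1.24) and ZNF8 (-1.17), and ZNF320 summed with ZNF468 had -0.66. ZNF280D was highest, with 37.6 CPM in reoxygenated cells, 15.7 CPM at 1% O2 and 26.9 CPM at 20% O2 on day 10 (log2 1.25, 0.98 to 1.54), followed by ZNF714 (1.19), ZNF92 (1.18) and ZNF430 (1.16). The member median of 0.03 changed sign with the scaling and is not given a direction. All 17 members that were 2-fold higher at 1% O2 on day 10 were lower in reoxygenated cells than at 1% O2, and their differences from the 20% O2 library ran from -0.14 to 0.80 with a median of 0.35. All 4 that were 2-fold lower at 1% O2 on day 10 were higher in reoxygenated cells than there. These comparisons share libraries, so an unusually high or low level at 1% O2 on day 10 enters both.

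Single members also differed between the 2 days at 1% O2. Comparing day 10 with day 1 at 1% O2, 4 members were at least 2-fold higher (1.6%, against 4.83% of the other genes and 14.2% of all genes) and 9 at least 2-fold lower (3.6%, against 7.49% and 6.56%). The 4 were ZNF8 (log2 1.52), ZNF704 (1.46), ZNF579 (1.08) and ZNF766 (1.07), the lowest was ZNF714 (-1.40), and ZNF579, ZNF766 and ZNF804A (-1.34) are named here after their values were seen. The members' median was -0.07, against -0.18 for the other genes. When libraries were scaled by their totals alone, this median turned to 0.08, while the other genes stood at -0.03, so members lay above the other genes under either scaling. At 20% O2 the members' median between the 2 days was -0.04, against -0.01.

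The corepressor genes through which KRAB proteins act had differences at day 10 near those of other well expressed genes. Of 27 listed names, 26 genes were measured (TASOR stands under its older symbol FAM208A). TRIM28, which binds the KRAB domain, had 607 CPM at 1% O2 and 650 CPM at 20% O2 on day 1, and 452 CPM in reoxygenated cells, 356 CPM at 1% O2 and 531 CPM at 20% O2 on day 10, with log2 differences of -0.10 and -0.58. SETDB1, the histone methyltransferase it recruits, had log2 differences of -0.12 and 0.33. The median of the list was -0.01 on day 1 and -0.31 on day 10, when 6 of the 26 (23.1%) were above 0 and 3 (11.5%) were at least 2-fold lower. The other genes of 40 CPM or more had a median of -0.27 on day 10, with 32.2% above 0 and 9.87% at least 2-fold lower. The 3 genes were the H3K9 methyltransferases SUV39H1 (-1.30) and SUV39H2 (-1.05) and the hemimethylated DNA reader UHRF1 (-1.16). In edgeR's oxygen term 0 of the 26 passed an adjusted p of 0.05, and 2, SUV39H1 and UHRF1, had an unadjusted p under 0.05 with adjusted p of 0.340 and 0.366.

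Zinc finger families outside the ZNF symbols were of several kinds at day 10. These sets were taken by symbol alone, so 1 set can mix kinds of finger. At the same floor of 10 CPM, the 10 ZFP genes had a median log2 difference of 0.50 at 1% O2. The 29 ZBTB genes had 0.22, the 4 ZKSCAN genes 0.22 and the 8 ZSCAN genes -0.10. The remaining sets had -0.51 for 14 ZC3H genes, -0.29 for 14 ZDHHC genes, -0.06 for 11 ZMYND, ZMAT and ZFAND genes, and 0.10 for 12 ZCCHC genes. On day 1 these medians ran between -0.06 and 0.20. ZNF rows under the floor had a day 10 median of 0.41 over 208 genes, against 0.64 over 4005 other genes under it, so that at low levels ZNF genes were not above the rest.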

How the data were processed

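The authors deposited estimated counts per gene symbol (expected counts), not normalized, for 5 MDA-MB-231 libraries. They also deposited a signal table on a CPM scale with TMM factors, whose values are whole reads of the same counts. The submitters' processing notes name Bowtie2 (2.1.0), RSEM (1.2.15), edgeR and hg38. Annotation and strand setting were not given in the sources used here, so reads of the 8 members with an antisense row cannot be told from that partner's. The members ZNF286A, ZNF320, ZNF395, ZNF559, ZNF664 and ZNF670 may share reads with another row, by a cut of 50% shared words or a joined row. Members below that cut can share reads too, such as ZNF417 (43.8% of words), ZNF468 (42.3%) and ZNF587 (26.9%). ZNF552, the lowest member on day 1, shares 21.0%.

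The deposited table set the 10 CPM floor. For all other values the expected counts were rounded, the 13940 genes with 1 CPM in at least 1 library were kept, TMM factors were recomputed in edgeR 4.0.16 (R 4.3.3), and log2 CPM was taken with a prior count of 2. Exact Clopper-Pearson 95% intervals of count ratios cover counting error only, since molecules were not tagged. An absence of counts allows 3 counts, or 0.245 to 0.377 CPM. The oxygen term was edgeR's quasi-likelihood test, adjusted by Benjamini-Hochberg over 13011 genes with 1 CPM in at least 2 of 4 libraries, and was tested on simulated data. Its 1 residual degree of freedom holds the change of the oxygen difference between day 1 and day 10, together with any spread between libraries. Part of either may be technical. Its p-values therefore measure no spread between replicate cultures. Alternatives were DESeq2 1.42.0, limma-voom (limma 3.58.1) and other scalings, floors and size rules. Fingers, KRAB signatures, GC content and shared words came from GENCODE transcripts, and positions and promoters from RefSeq (GRCh38.p14).

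The members and lists were chosen with earlier results of these data known. Named members were the 6 highest and 6 lowest at day 10, the 4 highest and 4 lowest on day 1 and in each reoxygenation comparison, the 5 most abundant, the 3 on each side of the floor and a panel of known function. Members past 2-fold at day 10 are also named.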

Additional observations from a re-analysis of the deposited data

Results flagged for a closer look

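For 7 members the difference between 1% and 20% O2 pointed one way on day 1 and the other way on day 10, with counting intervals clear of 0 on both days. The same count was not made over the other genes, so the 7 are not read as a trait of the family. The change between days (the log2 difference of day 10 minus that of day 1) was not tested, since each condition had 1 library. It was -1.69 for ZNF92, -1.63 for ZNF326 and -1.56 for ZNF430. For ZNF670, whose row stands beside a joined ZNF670-ZNF695 row, it was -0.84. ZNF654 had -0.76 and ZNF281, a regulator known from embryonic stem cells, -0.57. The change of -0.20 in ZNF664, the second most abundant member, was small beside its 245 to 273 CPM. ZNF430 passed the floor only through the 20% O2 library of day 10, which is the baseline of its day 10 difference. The change in ZNF430 is therefore partly a product of the selection. All 7 were higher at 1% O2 on day 1 and lower on day 10. Whether the 1% O2 library of day 10, in which 2011 of 13940 genes were at least 2-fold higher and 982 lower than at 20% O2, against 295 and 117 on day 1, has a part in this was not tested.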

How the results depend on the processing

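Scaling by library totals instead of TMM raised the median of all genes at day 10 to 0.14, against 0.02, and lowered the share of members below 0 to 35.2% (44.8% with TMM). They lowered it to 44.8% (58.4%) between day 10 and day 1 at 1% O2, where the member median reversed to 0.078, and to 24.4% (34.8%) in reoxygenated minus 20% O2 cells, where TMM without a filter or the deposited values gave 44.0%. The member median minus that of the other genes was 0.11 on day 1 and between 0.25 and 0.26 on day 10 under each scaling tried. Counts past 2-fold depended on the floor and the size rule. With a floor of 20 CPM (130 members) they were 1 on day 1 (3 at 10 CPM), 8 at day 10 (21), 0 between the 20% O2 libraries (1), 5 between the 1% O2 libraries (13) and 8 in reoxygenated minus 1% O2 cells (18). With 10 CPM in any of the 5 libraries (282 members) they were 36 at day 10, 24 between the 1% O2 libraries, 28 in reoxygenated minus 1% O2 cells and 1 in reoxygenated minus 20% O2 cells (0). A 1.5-fold rule gave 15, 79, 21, 65, 62 and 12 for day 1, day 10, the 20% O2 libraries, the 1% O2 libraries, and reoxygenated minus 1% and minus 20% O2 cells, and the deposited values gave 0 between the 20% O2 libraries. In the oxygen term (0 members) limma-voom called 2, no filter called 1 (ZNF470), and leaving out 1 library, without a day term, gave 0 to 54, the 54 without the 1% O2 library of day 1, where 2028 genes rose and 2197 fell. Leaving out the 1% O2 library of day 1, or instead that of day 10, takes the residual from the 2 libraries at 20% O2 alone. The cause of the different counts was not tested. The oxygen term pairs libraries by day, and without the day term 0 members were called. No pairing by replicate number was possible, since the labels carry none. Depth limits members of 10 to 20 CPM, whose reads leave wide counting intervals.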
